A study of Mus musculus with 2 samples.

Results

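The genes of the BAF complex and of the CHD family, which encode ATP-dependent chromatin remodelers and their subunits, were described in mouse hippocampus. The members are the protein-coding genes whose name starts with Smarc or Arid, those named Chd followed by a single digit, and Actl6a, Actl6b, Dpf1, Dpf2, Dpf3, Ss18, Ss18l1, Bcl7a, Bcl7b and Bcl7c. The rule found 42 genes of 22028 protein-coding and 55536 annotated genes. The study sequenced total RNA from hippocampus of 36 day old female B6CASTF1/J mice, F1 animals from a cross of the strains C57BL/6J and CAST/EiJ, with 300 ng of RNA per library and external ERCC spike-in RNAs. It holds 1 group with 2 libraries, numbered as biological replicates 1 and 2, and no treatment, other genotype or second time point. Both libraries carry the same donor label and separate biosample labels, so the spread given below is that between these samples and may be technical. The libraries held 32443497 and 30125183 expected counts (reads assigned to genes, divided where a read matches several transcripts), of which the 42 members took 0.382% and 0.394%.

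A remodeler uses ATP to slide, eject or restructure nucleosomes. BAF, the mammalian SWI/SNF complex, is assembled from a single ATPase (Smarca2 or Smarca4) and a set of positions, most of which can be filled by alternative paralogues. The best known exchange takes place when a neural progenitor leaves the cell cycle. Actl6a, Ss18 and other subunits used in dividing cells then give way to Actl6b, Ss18l1 (also called CREST) and Dpf1 or Dpf3. The microRNAs miR-9-3p and miR-124 act on the Actl6a message in that switch. CHD proteins join a chromodomain to the same kind of ATPase; Chd3, Chd4 and Chd5 are ATPases of the deacetylase complex NuRD, while Chd7 and Chd8 are known for dominant neurodevelopmental disorders in humans. ISWI enzymes, which space nucleosomes, have Smarca1 or Smarca5 as their motor.

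The sequences of the exchange are shown because the actin-like pair Actl6b and Actl6a had the widest ratio among the paralogue pairs compared below. The mature miR-9-3p of RefSeq (build GRCm38.p6) is given with its seed, bases 2 to 8, in capitals, and the stretch of the Actl6a-201 3′ UTR (mm10, chr3:32726625-32726652, plus strand, last exon) is given with the letters complementary to that seed in capitals.
miR-9-3p: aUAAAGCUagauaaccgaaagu
Actl6a 3′ UTR: cacctcaacgtctgtAGCTTTAgtacac
The match starts at base 38 of a UTR of 371 bases. The same 7 letters, AGCTTTA, searched on the transcript strand only, occurred in the UTR of 6 of 42 members (14.3%) and of 12.1% of 12637 genes, with a median UTR length of 1533.5 bases in the members against 1083. The other members with a match were Arid2 and Smarcc1 (2 each) and Smarca2, Smarcd2 and Smarce1 (1 each), and the UTR of Actl6b held none. The match describes the letters and is not evidence of binding, and no microRNA level was used here.

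The 250 bases upstream of the RefSeq start of each gene of this pair (GRCm38.p6, both on the plus strand) are printed for comparison. Every CG dinucleotide is in capitals. They lie at chr3:32708296-32708545 and chr5:137553296-137553545. In the annotation used for the levels, Actl6a-201 and Actl6b-205 start at 32708507 and 137553520, inside these windows. The windows thus hold some annotated exon bases, and the Actl6a gene starts further upstream, at 32706298.
Actl6a: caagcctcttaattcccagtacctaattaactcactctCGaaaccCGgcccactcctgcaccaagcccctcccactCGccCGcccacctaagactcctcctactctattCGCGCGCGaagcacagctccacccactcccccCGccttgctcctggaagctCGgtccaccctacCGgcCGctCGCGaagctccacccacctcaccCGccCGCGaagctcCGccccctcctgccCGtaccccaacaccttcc
Actl6b: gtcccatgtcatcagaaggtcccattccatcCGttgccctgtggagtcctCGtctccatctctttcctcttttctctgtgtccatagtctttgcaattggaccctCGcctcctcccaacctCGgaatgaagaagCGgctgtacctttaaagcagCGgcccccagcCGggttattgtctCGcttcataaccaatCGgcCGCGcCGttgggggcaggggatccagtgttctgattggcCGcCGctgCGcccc
The Actl6a window held 19 CG, a GC content of 64.8% and 3 copies of GGGCGG, and no CCAAT. The Actl6b window held 15 CG, a GC content of 58.0% and 3 copies of CCAAT, and no GGGCGG (both strands searched for each motif). RefSeq windows were found for 32 of the 42 members; their median was 20.5 CG against 6 over all 27025 windows. GGGCGG stood in 81.3% of the members' windows against 32.9% of all, CCAAT in 34.4% against 34.5%, and TATAAA in 6.25% against 13.0%. CG-rich windows with 10 or more CG made up 84.4% of the members' and 38.2% of all. The 27025 windows outnumber the 22028 protein-coding genes, so they are not a background of expressed protein-coding genes. Whether the members differ from such genes was not tested. No chromatin or methylation measurement was used here, so these counts describe letters only.

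Nearly the whole set was expressed. A level of at least 1 TPM (a level corrected for transcript length and scaled to the library) in both libraries was reached by 41 of 42 members, against 57.6% of all protein-coding genes. The exception was Arid3c, an ARID-domain DNA-binding gene, with 1 and 0 expected counts; the count of 0 in replicate 2 allows up to 3 counts, or 0.0996 CPM (counts scaled to the library total; counting error only). The median of the members' mean TPM was 22.6, with medians of 21.6 and 22.3 in the libraries, against 14.7 for protein-coding genes that reached 1 TPM. 28 members lay above that detected-gene median in both libraries, and 10 lay above the 90th percentile of all protein-coding genes. In bulk tissue a low level can mean fewer cells that express the gene or less RNA per cell, and these cannot be told apart.

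**Figure D1:**
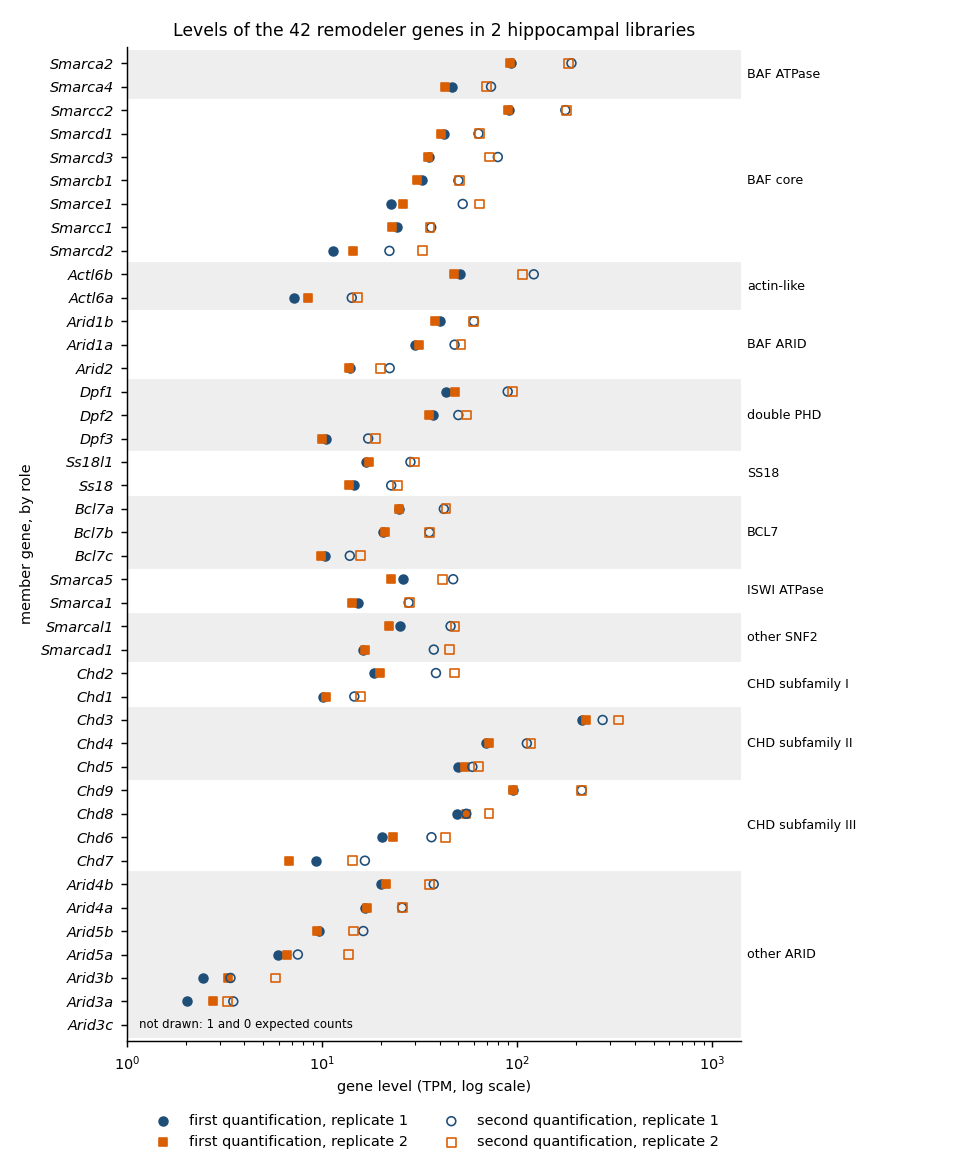
Level of each member in TPM (x axis, log scale), grouped by role in the complex, with replicate 1 as circles and replicate 2 as squares, filled for the first and open for the second quantification. Chd3 stands alone at 215 and 225 TPM in the first quantification, and Arid3c (1 and 0 counts) is not drawn.

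Of the BAF ATPases, Smarca2 (BRM, ENSMUSG00000024921) was measured at 92.6 TPM in replicate 1 and 91.5 in replicate 2. Smarca4 (BRG1) was measured at 46.2 and 42.7 TPM. Smarca2 thus stood above Smarca4 in both libraries, by a ratio of 2.07 ± 0.098 (SD, n = 2). That order depended on which transcripts were summed: over protein-coding transcripts the ratio was 1.19 ± 0.078, and over protein-coding transcripts with a complete coding sequence it was 0.739 ± 0.0030, with Smarca4 the higher. In the second quantification the complete-coding levels were 50.2 ± 0.32 TPM for Smarca2 and 59.6 ± 2.29 for Smarca4, again with Smarca4 higher.

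Among the core subunits, the scaffold Smarcc2 (BAF170) led with 90.3 and 89.6 TPM. Its paralogue Smarcc1 (BAF155), the form best known from progenitors and stem cells, had 24.3 and 22.7 TPM. Smarcc2 made up 79.3% ± 0.69 of the pair, and its excess of 3.83 ± 0.16 times was larger than the spread between libraries in every transcript set tried. The Smarcd position (BAF60) was divided among 3 genes: Smarcd1 had 42.4 and 40.6 TPM, Smarcd3 35.2 and 34.8, and Smarcd2 11.4 and 14.4. Smarcd3, the form tied to neuronal and cardiac BAF, was at 0.843 ± 0.018 times Smarcd1 by the first quantification and at 1.19 ± 0.098 times by the second, so the order of these genes changed with the quantification. Smarcd3 shares 2466 exon bases with Chpf2 on the opposite strand, which had 2050 and 2141 counts of its own against 1238 and 1141 for Smarcd3. Expected counts of both genes were whole numbers in both libraries. No source used here says whether the counting used strand, and the part of Chpf2 reads in the Smarcd3 level was not tested. Of the subunits without a paralogue, Smarcb1 (SNF5), which contacts the nucleosome's acidic patch, had 32.6 and 30.8 TPM, and Smarce1 (BAF57) had 22.6 and 25.9.

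The actin-like position showed the neuronal form ahead. Actl6b (BAF53b, ENSMUSG00000029712), which is neuron-specific and needed for dendrite growth and memory, had 50.7 and 47.2 TPM from 1666 and 1535 expected counts. Actl6a (BAF53a, ENSMUSG00000027671) had 7.20 and 8.49 TPM from 219 and 233 counts. Actl6b therefore made up 86.2% ± 1.99 of the pair's TPM, and the ratio was 7.05 in replicate 1 and 5.56 in replicate 2. Actl6b stood above Actl6a in both libraries under each transcript set: the mean ratio was 7.76 in the second quantification, 7.70 over protein-coding transcripts and 14.2 over complete coding sequences. Actl6a, whose last exon carries the miR-9-3p match printed above, shares 452 exon bases with Mrpl47 on the opposite strand (308 and 294 counts). Expected counts of Actl6a and Mrpl47 were whole numbers in both libraries, and the part of Mrpl47 reads in the Actl6a level was not tested. Markers of dividing cells were close to the detection limit in these libraries, 2 of 5 reaching 1 TPM with a summed level of 5.07 and 4.69 TPM, and Mki67 at 0.57 and 0.40; markers of newborn neurons reached it in 4 of 5, with Dcx at 6.11 and 6.68 TPM. The part of such cells in the Actl6a level was not tested.

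The ARID subunits define the class of BAF complex. Arid1b, which is exclusive with Arid1a in canonical BAF, had 40.1 and 38.0 TPM, and Arid1a had 30.0 and 31.4. The ratio of Arid1a to Arid1b was 0.787 ± 0.055, and it stayed below 1 in both libraries under each transcript set. Arid2, the subunit of the PBAF form, was lower at 13.8 and 13.7 TPM.

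The DPF genes encode PHD-finger subunits that read histone tails. Of the forms tied to neurons, Dpf1 was the highest of the 3 genes and Dpf3 the lowest. Dpf1 (BAF45b) had 43.4 and 48.2 TPM. Dpf2 (BAF45d), the broadly expressed form, had 36.8 and 35.1. Dpf3 (BAF45c) had 10.4 and 10.03. Dpf1 exceeded Dpf2 by 1.28 ± 0.14 times over all transcripts and by 2.27 ± 0.054 times over protein-coding ones. Of Dpf2 TPM, 42.4% ± 5.0 came from protein-coding transcripts. Over complete coding sequences the excess was 1.45 ± 0.035 times, as 30.1% ± 1.24 of Dpf1 TPM was on coding transcripts with an incomplete coding sequence. The share of the 3 genes' TPM held by Dpf2 was 39.1% ± 2.12, and 25.3% ± 0.83 over protein-coding transcripts.

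At the SS18 position both paralogues were expressed. Ss18l1, a calcium-responsive coactivator in neurons, had 16.9 and 17.3 TPM, and Ss18, the form of dividing cells, had 14.6 and 13.7. Ss18l1 made up 54.7% ± 1.56 of the pair and 60.8% ± 3.50 over protein-coding transcripts, and its ratio to Ss18 was 1.21 ± 0.076 over all transcripts and 1.90 ± 0.18 over complete coding sequences. Ss18l1 has 1 annotated transcript, a complete coding one, against 11 for Ss18. The direction of these rises was thus fixed by the annotation. Compared with the actin-like pair, the neuronal form had a smaller share here in both libraries: 53.6% and 55.8% of the SS18 pair, against 87.6% and 84.8% of the actin-like pair. Of the small BCL7 subunits, Bcl7a had 24.7 TPM in each library, Bcl7b 20.6 and 21.02, and Bcl7c 10.3 and 9.86. Bcl7a stood above Bcl7b by 1.19 ± 0.017 times over all transcripts but at 0.780 ± 0.16 of it over protein-coding transcripts, with Bcl7b then higher in both libraries.

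**Figure D2:**
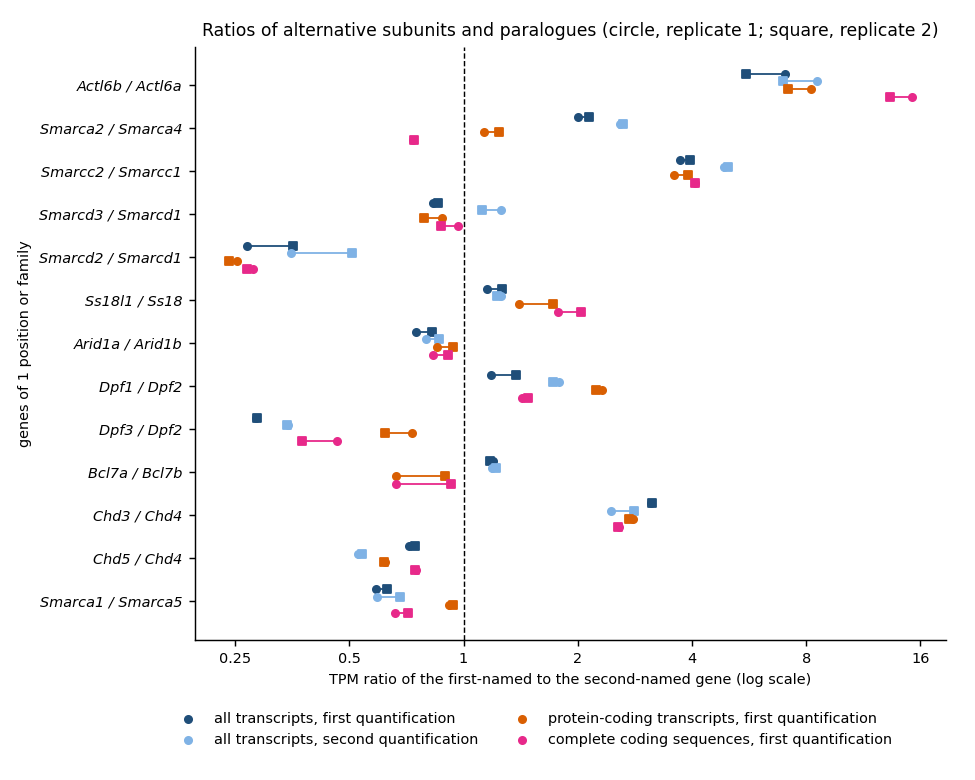
TPM ratio of paralogues (x axis, log scale) for the 13 pairs compared, with replicate 1 as circles, replicate 2 as squares and a dashed line at equal levels. The colours are all transcripts in the first and second quantification, protein-coding transcripts, and complete coding sequences; Actl6b over Actl6a lies farthest to the right in each, while Smarca2 over Smarca4, Smarcd3 over Smarcd1 and Bcl7a over Bcl7b fall on both sides of the line.

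Of the remodeler ATPases outside BAF, the ISWI motor Smarca5 (SNF2H) had 25.9 and 22.5 TPM and its paralogue Smarca1 (SNF2L), known from postmitotic neurons, 15.2 and 14.2. Smarca1 was at 0.609 ± 0.030 of Smarca5, and at 0.927 ± 0.019 over protein-coding transcripts. Of Smarca5 TPM, 65.7% ± 1.83 was on coding transcripts and the rest on retained-intron ones. Over complete coding sequences the ratio was 0.686 ± 0.037, as 26.1% ± 2.53 of Smarca1 TPM was on coding transcripts with an incomplete coding sequence. Counts of Smarca5 were not whole numbers and 33.3% of its 31-base words also occur in transcripts of other genes, so its reads were in part divided with them. Smarcal1, an annealing helicase of stalled replication forks, had 25.2 and 22.1 TPM. Smarcad1, which acts in heterochromatin upkeep and DNA end resection, had 16.2 and 16.7.

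Chd3 (ENSMUSG00000018474, chromosome 11) was the highest member in both libraries, with 215 and 225 TPM from 23423 and 23335 expected counts, and ranked 222 among protein-coding genes. The other NuRD ATPases of its subfamily were lower. Chd4 had 68.9 and 72.0 TPM, and Chd5, the form restricted largely to neurons and testis, had 49.5 and 53.7. Chd3 made up 64.3% ± 0.20 of the 3 genes, Chd4 20.6% ± 0.12 and Chd5 15.1% ± 0.32. The order Chd3, Chd4, Chd5 was the same in both libraries under each transcript set, with Chd3 over Chd4 between 2.56 and 3.12 on average.

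The third CHD subfamily spread widely. Chd9 was measured at 95.4 and 94.8 TPM, second among the members, but most of that level was a single non-coding transcript described below; without it the gene had 22.0 and 22.3 TPM. Chd8, an autism-risk gene that binds many active promoters, had 49.1 and 54.4 TPM, Chd6 20.4 and 23.1, and Chd7, the CHARGE syndrome gene, 9.37 and 6.80. The Chd7 difference in TPM was not one of reads, as 904 and 900 counts were assigned to it and the TMM-scaled log2 ratio was 0.07. In the first subfamily, Chd2, an epilepsy gene, had 18.6 and 19.9 TPM and Chd1, which binds methylated lysine 4 of histone H3, 10.1 and 10.5. Chd2 shares 2628 exon bases with 1810026B05Rik on the same strand (512 and 470 counts), and its counts were not whole.

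The ARID genes that are not BAF subunits ran from the middle of the members to the lowest. Arid4b and Arid4a, which bind the retinoblastoma protein and the Sin3 deacetylase complex, had 20.0 and 21.1 TPM and 16.7 and 16.9 TPM. Arid5b, a partner of a histone demethylase, had 9.60 and 9.42. Arid5a, an RNA-binding regulator of cytokine messages, had 5.98 and 6.60. Arid3b and Arid3a, E2F-binding factors of the Bright family, had 2.45 and 3.29 TPM and 2.03 and 2.78 TPM, the lowest of the members that reached 1 TPM.

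Which transcripts made up these levels was examined next, and the transcript of highest TPM in the 40 detected members with at least 2 annotated transcripts. Members had a median of 7.5 annotated transcripts against 5 for detected protein-coding genes, and 378 in all. Over all 41 detected members, protein-coding transcripts held a median of 79.4% ± 1.52 of a member's TPM. Over all 12679 detected protein-coding genes the median was 89.3% ± 0.69. Both sets include genes with 1 annotated transcript, whose share is fixed by the annotation. Genes of like transcript number were not compared, so whether the members differ from such genes was not tested. In Chd9, Dpf2 and Arid5a the coding share was below 50% in both libraries. In 6 members, Smarca4, Ss18l1, Arid4a, Smarca1, Dpf3 and Arid3a, all TPM was on protein-coding transcripts in both. For Smarca4, Dpf3 and Ss18l1 that was fixed by the annotation, which lists no other transcript type for them. Ss18l1, with 1 annotated transcript, was detected but is not among the 40. The transcript of highest mean TPM over the libraries, called the leading one here, was the same in both quantifications for 31 of 40 members (77.5%), against 75.4% of such protein-coding genes, and it was not protein coding in 3 of 40 members (7.5%) in the first quantification, against a background of 8.16%, and also in 3 of 40 in the second, against 10.6%. These shares are near the background, so the members as a set did not stand apart in them.

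**Figure D3:**
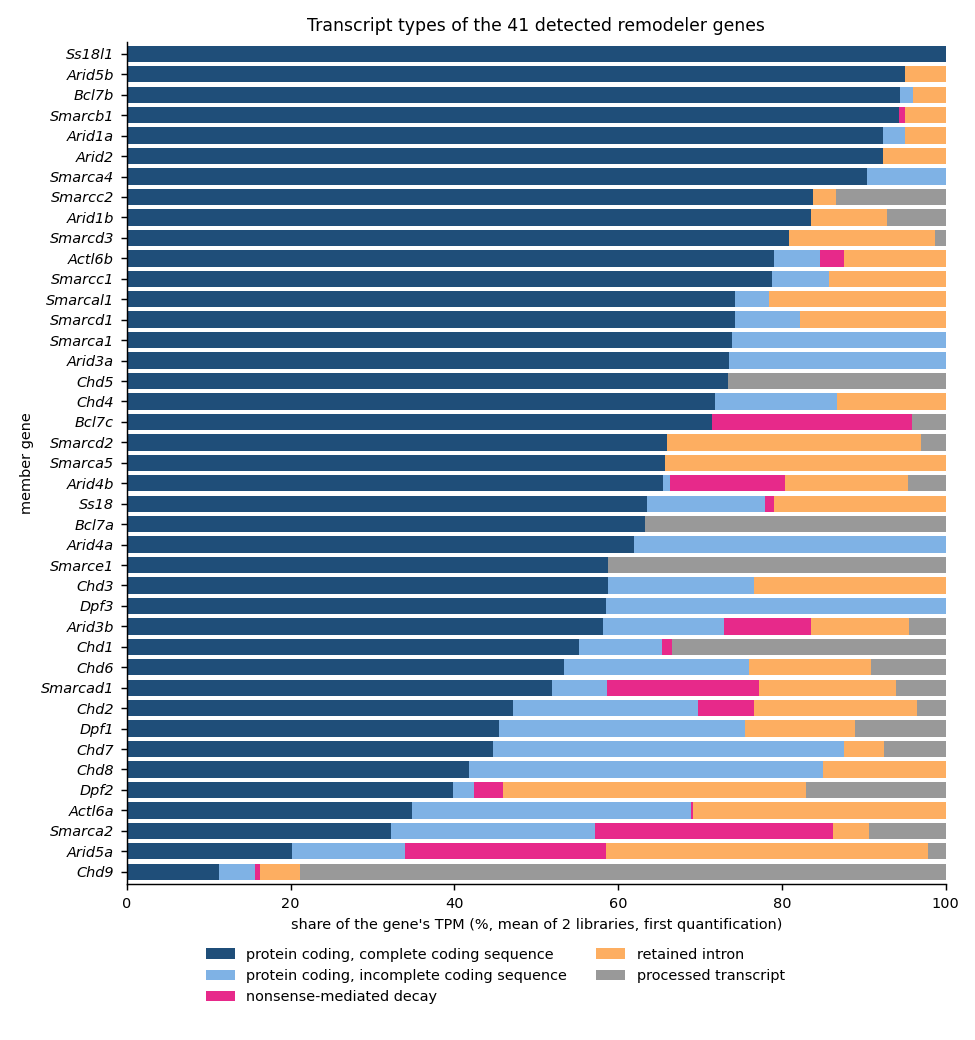
Share of each detected member's TPM (x axis, percent, mean of the 2 libraries, first quantification) held by each annotated transcript type. Members are ordered by the share on complete coding sequences, from Ss18l1 at the top, with a single annotated transcript, to Chd9 at the bottom, where processed transcripts held 78.8%.

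In Chd9 (chromosome 8, plus strand) the non-coding processed transcript Chd9-206, of 759 bases and 3 exons (90828827 to 90891521, mm10), took 77.0% and 76.4% of the gene's TPM. It took 24.3% of the gene's expected counts in each library, 1141 and 1072 of 4684 and 4413, because TPM divides by length and this transcript is short. Coding transcripts of Chd9 amounted to 14.9 ± 0.11 TPM, which moved the gene from second to 24th among the members by coding TPM. Of the 31-base words of Chd9-206, 81 of 96 in exon 2 and 361 of 515 in exon 3 also occur in transcripts of other genes, against 0 of 58 in exon 1. The second quantification placed the same transcript first, with 80.9% and 79.2% of TPM. What the shared words contribute to the Chd9-206 level was not tested.

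Smarca2 had the most complex make-up, with 46 annotated transcripts. In the first quantification its leading transcript was Smarca2-202, annotated as a target of nonsense-mediated decay although it spans 33 exons, with 22.7 and 17.2 TPM; the full coding transcript Smarca2-201, also of 33 exons, had 13.4 and 14.7. In the second quantification the order of these forms was turned, with 43.4 and 43.7 TPM for Smarca2-201 and 24.3 and 20.1 for Smarca2-202. The incomplete fragments were placed unevenly too: Smarca2-239, of 800 bases, had 16.8 and 18.4 TPM in the first, ahead of Smarca2-202 in replicate 2, and was close to 0 in the second, where Smarca2-241, of 630 bases, had 49.9 TPM in replicate 1 and 5.6 in replicate 2. The split between these overlapping models thus depended on the quantification, while the summed Smarca2 count differed little between them, at 1.09 times. Smarca4 was simpler: all 4 of its annotated transcripts are coding, and Smarca4-204 held 66.9% and 59.4% of TPM.

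In the actin-like pair, Actl6b-205, the complete coding form, held 77.5% and 80.7% of Actl6b TPM and 82.9% and 83.0% of its counts. Actl6a was more divided: the complete form Actl6a-201 held 36.0% and 33.7% of TPM and 53.1% and 52.6% of counts, Actl6a-202, whose annotated coding sequence is incomplete, held 35.2% and 33.2% of TPM, and retained-intron transcripts held 30.9% ± 3.26. Actl6a-201 stood at 2.6 and 2.9 TPM against 39.3 and 38.1 for Actl6b-205. Arid1b was carried by complete coding forms, Arid1b-207 at 63.5% and 62.3% and the longer Arid1b-203 at 20.0% and 21.3%.

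In several CHD genes short transcript models took a larger share of TPM than of counts. Chd3-202, with 40 exons, took 82.0% and 79.3% of Chd3 counts and 53.0% and 51.1% of its TPM; the retained-intron model Chd3-203 had 38.1 and 44.2 TPM by the first quantification and was listed at 0 by the second. Chd5-204, a processed transcript of 280 bases, took 24.6% and 27.0% of Chd5 TPM from 0.6% and 0.7% of its counts, and was likewise listed at 0 in the second, where Chd5-202 held 74.4% and 81.0%. In Chd8 the complete forms Chd8-212 (25.5% and 18.2% of TPM, 53.5% and 40.6% of counts) and Chd8-201 (17.5% and 22.4% of TPM, 35.3% and 47.9% of counts) changed order between the libraries, next to the fragments Chd8-213 (360 bases) at 22.9% and 16.8% and Chd8-216 (415 bases) at 16.6% and 23.6%. In Chd4 the leading form changed between 2 complete models of 39 exons: Chd4-202 was first in the first quantification, with 25.3 and 22.4 TPM, and Chd4-203 in the second, with 34.1 and 35.7.

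The remaining members whose leading transcript differed between the quantifications were Dpf1, Dpf3, Smarcd3, Smarca1, Ss18, Bcl7a and Bcl7c. Dpf1-201 (34.0% and 30.8%) gave way to the fragment Dpf1-207 (28.1% and 29.6%), and Dpf3-207 (35.1% and 31.6%) to the fragment Dpf3-202 (27.4% and 34.1%), which was ahead of Dpf3-207 (28.9% and 22.7%) in replicate 2 but not in replicate 1. Smarcd3-208 held 82.6% and 77.2% of Smarcd3 TPM in the first, while in the second Smarcd3-201, of similar length, held 19.3% and 41.6% and Smarcd3-208 held 37.2% and 17.1%, so the libraries did not share the order there. Smarca1-202 (34.0% and 38.2%) was passed by Smarca1-206 (31.2% and 25.5%), and Ss18-203 (30.0% and 33.2%) by Ss18-201 (53.4% and 25.3%), in both cases in replicate 1 only: in replicate 2 of the second quantification Smarca1-202 held 28.6% and Ss18-203 29.4%. In Bcl7a the coding Bcl7a-201 held 45.5% and 64.6% in the first, beside 46.8% and 26.6% for the processed transcript Bcl7a-203, which was thus ahead in replicate 1. In the second, Bcl7a-203 held 80.1% and 73.9%. Bcl7c-207, of 654 bases, held 50.4% and 49.0% of Bcl7c TPM in the first, and Bcl7c-201, at 68.3% and 72.4%, led in the second. Of the Bcl7c counts in the first, Bcl7c-207 took 24.4% and 19.3%, and the decay target Bcl7c-202, of 6235 bases, took 56.0% and 59.9%. In Arid5a the model of highest mean TPM in both was Arid5a-205, a decay target, with 22.3% and 26.8% by the first quantification, whereas by the second it was close to 0 in replicate 1 and held 27.3% in replicate 2.

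Counts at the gene level were close between the quantifications. None of 41 members with a mean count of at least 100 differed by more than 1.5 times between the quantifications, against 1.87% of protein-coding genes. The median ratio of the second to the first count was 1.09 in members and 1.08 in protein-coding genes, and that of TPM was 1.70 and 1.71, so TPM values of the 2 sets are not on the same level. Expected counts were not whole (tolerance 0.005) in 8 members, Chd9, Smarcb1, Smarca5, Smarcc1, Smarce1, Chd2, Ss18 and Bcl7c, as for 15.3% of detected protein-coding genes.

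Under TMM scaling most members differed little between the 2 libraries. With 1 library on each side there is no test, so ratios were set against those of all 12651 genes with a mean count of at least 100. The members' median count was 1449, and genes of like count were not compared. Whether the members differ less than such genes was therefore not tested. Of 41 members, 2 differed by more than 1.2 times (4.88%), against 9.32% of all genes; both were higher in replicate 2, a direction seen in 6.20% of all. None differed by more than 2 times, against 0.466% of all genes. The median log2 ratio of replicate 2 over replicate 1 was 0.03 in members and -0.01 over all genes, with 23 members above 0 and 18 below, and 34 (82.9%) lay within 1.1 times, against 70.8% of all. The 2 genes were Arid3b, with 157 and 198 counts and a log2 ratio of 0.41, and Arid3a, with 197 and 239 counts and 0.36. At the other end stood Smarca5, at -0.17 with 2929 and 2466 counts. Arid3b and Arid3a are also the members with the fewest reads among the 41, where counting error is widest.

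**Figure D4:**
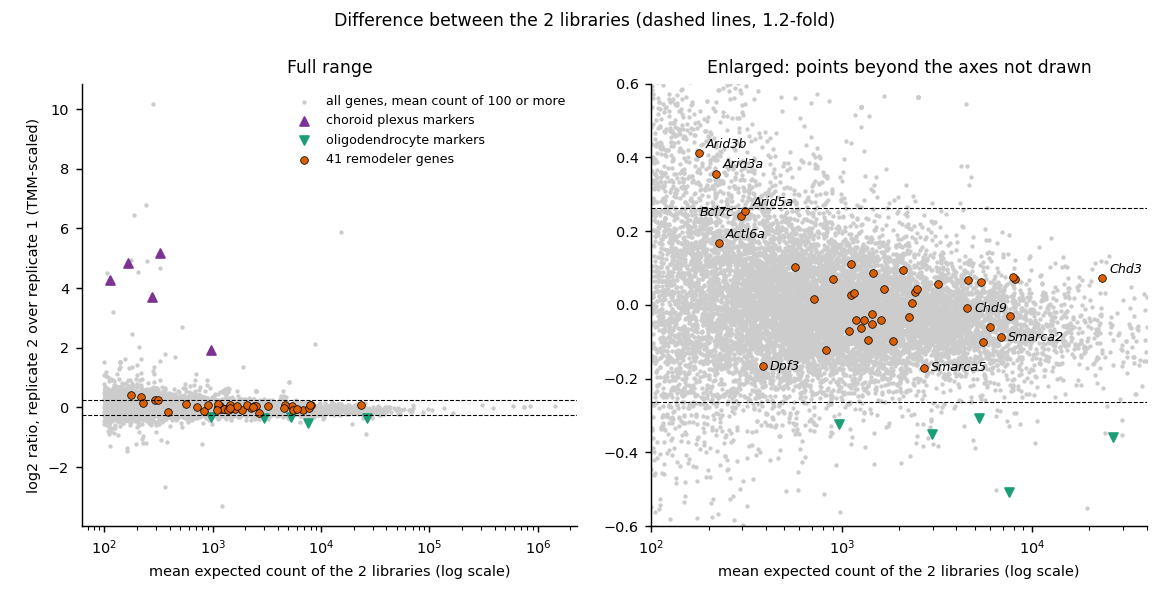
Log2 ratio of replicate 2 over replicate 1 against the mean expected count (log scale) for all genes with a mean count of at least 100, at full range on the left and enlarged on the right, with dashed lines at 1.2-fold. The 41 remodeler genes lie between -0.17 and 0.41, while choroid plexus markers lie between 1.94 and 5.17 and oligodendrocyte markers between -0.51 and -0.31.

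The tissue of the libraries was not identical. Markers of choroid plexus, the epithelium that borders the ventricle, were higher in replicate 2 in each of the 5 (of 7 listed) with a mean count of at least 100, with a summed level of 5.69 TPM in replicate 1 and 58.6 in replicate 2, and meningeal fibroblast markers in 4 of 4, with 49.6 and 100 TPM. Oligodendrocyte markers were lower in replicate 2 in 5 of 5 (853 and 659 TPM) and CA3 markers in 3 of 3 (126 and 98.4), while dentate granule markers were higher in 3 of 3 (77.7 and 87.0) and all 5 pan-neuronal markers were lower (1963 and 1714). All listed markers of neurons, CA1, CA3 and dentate gyrus reached 1 TPM in both libraries. The part of these differences in the ratios of Arid3b, Arid3a and the other members was not tested.

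Partner genes of the same complexes were read from lists of known complex members. All 6 subunits special to PBAF or non-canonical BAF reached 1 TPM in both libraries, with a median of 22.1 TPM, close to the members' own: Brd9, of the non-canonical form, had 41.1 and 43.3 TPM, Phf10 24.7 and 23.0 and Pbrm1 23.4 and 23.7. Actb, the actin subunit of BAF, had 1349 and 1285 TPM, and the neuronal BAF-associated zinc-finger genes Bcl11b and Bcl11a had 55.0 and 55.7 TPM and 45.0 and 42.0. None of these 9 genes differed by more than 1.2 times between libraries, against 9.32% of all genes with a mean count of at least 100.

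All 12 NuRD partners of Chd3, Chd4 and Chd5 reached 1 TPM, with a median of 36.7, led by the histone chaperones Rbbp7 (65.7 and 65.3 TPM) and Rbbp4 (49.2 and 50.7) and the methyl-binding-domain gene Mbd3 (59.4 and 60.5). Of the ISWI partners 8 of 9 did so, with a median of 16.6: Baz1b had 31.4 and 32.9 TPM, Bptf 25.6 and 26.5, Baz2b 20.9 and 22.8, and Baz1a fell short at 0.45 and 0.89. The 8 with enough counts were all above 0 in their log2 ratio of replicate 2 over replicate 1, at a median of 0.08 against -0.01 over all genes. Of these 8, 1 was past 1.2 times, against 9.32% of all genes: Cecr2, at 0.33 (named after its value was seen). The INO80 and SWR1-type remodelers reached 1 TPM in 9 of 9, led by Srcap (40.7 and 43.4 TPM), Ep400 (37.1 and 38.7) and Znhit1 (34.1 and 29.1). Other SNF2-type ATPases reached it in 6 of 7, led by Atrx, the gene of an X-linked intellectual disability syndrome, at 70.04 and 72.3 TPM. Over all transcripts, 4 members, Chd3, Chd9, Smarca2 and Smarcc2, exceeded that level in both libraries. Over protein-coding transcripts alone Chd3 had 166.8 and 170.6 TPM and Smarcc2 77.1 and 73.7. Smarca2 then had 52.24 and 52.95 TPM and Chd9 14.98 and 14.83. The level of Atrx over protein-coding transcripts was not compared. Hltf had 10.3 TPM in each library, Ercc6 8.65 and 8.93, and Ttf2 was below the limit at 0.54 and 0.63.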

How the data were processed

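Total RNA-seq of 2 hippocampal libraries was used. Expected counts and TPM of genes and transcripts were deposited by the authors, per the file headers, with each transcript's percent of its gene's TPM, also as deposited (first quantification). Estimated counts and TPM from another quantification, also deposited by the authors per transcript, were summed here by gene. Both sets use mm10 with annotation M21, per the deposited README files; the software is not given in the sources used here. The tables hold no allele-specific values.

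Members, paralogue pairs and gene lists were chosen with earlier results of these data known. Levels are mean ± SD over 2 libraries. With 1 group no test was run. Replicate ratios used edgeR 4.0.16 TMM scaling (R 4.3.3) over genes, a prior count of 0.5 and a mean count of at least 100; the ratio script was tested on simulated data. A detected gene has at least 1 TPM in both libraries. All members were named, with values in every library at 1 TPM or more and counts below. Isoforms were given for members whose leading transcript is non-coding or differs between quantifications and for 8 genes fixed with the lists. From each partner list the 3 highest genes and those below 1 TPM were named. Complete coding sequences lack the annotation's start or end tag for an incomplete one. Word sharing was counted in 31-base words over annotated transcripts, both strands. The name rule was read as Chd followed by exactly 1 digit, which leaves Chd1l to a partner list. DESeq2 1.42.0 size factors, total counts and ERCC spike-ins were alternative scalings.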

Additional observations from a re-analysis of the deposited data

How the results depend on the processing

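The number of members at 1 TPM or more was 41 at a minimum of 0.5 TPM, in the second quantification, rescaled to protein-coding genes and in either library alone, and 39 at a minimum of 5 TPM. The median TPM of members was 22.6, and 41.9 in the second quantification, 52.4 rescaled to protein-coding genes, 23.5 over detected members, 15.7 over protein-coding transcripts and 14.2 over complete coding sequences (the last 2 were chosen after seeing the data); leaving out a library gave 21.6 to 22.3. Of 13 paralogue pairs, 12 kept their order in both libraries in the second quantification, 12 over protein-coding transcripts and 11 over complete coding sequences. The reversed ratios were Smarcd3 over Smarcd1 (1.19 in the second quantification), Bcl7a over Bcl7b (0.780 over protein-coding transcripts, 0.795 over complete coding sequences) and Smarca2 over Smarca4 (0.739 over complete coding sequences); the cause was not tested. In the same order of settings, Actl6b over Actl6a was 7.76, 7.70 and 14.2, Smarca2 over Smarca4 2.61 and 1.19, and Chd3 over Chd4 2.63, 2.76 and 2.56. Leaving out a library moved Actl6b over Actl6a between 5.56 and 7.05 and reversed no pair.

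Members past 1.2-fold between libraries numbered 2, and 4 with total counts (10.02% of all genes), 23 with spike-in scaling (44.4%), 3 with any count above 0 (44.1%), and 0 past 1.5-fold and past 2-fold. Spike-in scaling moved the median log2 ratio of members to 0.29 and that of all genes to 0.25, a shift that any scaling gives to all genes alike. The members' median lay 0.04 above that of all genes under TMM, 0.03 above at a count minimum of 10 and level with it (0.0002 above) with any count above 0. The median coding share was 82.9% in the second quantification and 82.7% with decay targets counted as coding. No paired analysis was possible because the series holds 1 group. With 2 libraries, depth limits Arid3c (1 and 0 counts), Actl6a, Arid5a, Arid3a, Arid3b and Bcl7c most, each with fewer than 400 counts per library.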
